A study of Mus musculus with 16 samples.

Results

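Genes used as markers of neutrophils were followed across lung RNA sequencing libraries of mice with and without the interleukin-31 receptor alpha chain (IL-31RA): S100a8, S100a9, Csf3r, Retnlg, Il1r2, Il1b, Trem1, Ngp and Camp. They were taken as the rows of the deposited table that carry these symbols, and all 9 were found among the 16380 listed genes. The lungs fall into 4 groups of 4 libraries each: IL-31RA knockout mice given bleomycin (KO-Bleo), wildtype mice given bleomycin (WT-Bleo), knockout mice given saline (KO-Sal) and wildtype mice given saline (WT-Sal). Knockout and wildtype animals were C57BL/6 littermates of both sexes, 10 to 18 weeks old, and the knockout is a germline deletion of exons 4 to 6 of Il31ra that all cells carry. Bleomycin, which breaks DNA and is used to scar lungs in models of fibrosis, was given intradermally at 6 U/kg, 5 days a week over 4 weeks, with saline in its place in the controls, and lungs were collected on day 28. No source used here tells which mouse, sex or sequencing run each library came from, so p-values measure the spread between libraries, which may be technical.

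Neutrophils are short-lived white blood cells that leave the bone marrow under the control of granulocyte colony-stimulating factor, circulate in blood and are held in large numbers in the small vessels of the lung. Their cytosol is filled with calprotectin, the complex of S100A8 and S100A9, and their granules, which are loaded stepwise during maturation in the marrow, hold antimicrobial peptides and proteases. Mature cells sense chemokines, growth factors and damage through surface receptors, and can release interleukin-1 beta. In whole lung RNA, fewer cells of a type and less RNA per cell cannot be told apart.

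Values are RPKM, reads scaled to the length of the gene and to all reads of the library, so that levels of genes of different length can be set side by side. WT-Bleo replicate 6 held 604134 recovered reads and KO-Bleo replicate 15 held 1234594, against 7790575 to 32153698 in the other 14 libraries, and both shallow libraries list more genes at 0 (2089 and 1208, against at most 200). Il31ra had 0.0403 ± 0.00793 RPKM in KO-Sal and 0.185 ± 0.0578 RPKM in WT-Sal (SD, n = 4 each), from 2 to 3 and 5 to 17 reads, and 2 to 9 reads in KO-Bleo against 0 to 13 in WT-Bleo. The files do not show which exons these reads fell in, so the receptor gene is a weak check of the genotype labels. Groups were compared by limma on log2(RPKM + 1) over all listed genes, and a gene was called at a Benjamini-Hochberg adjusted p under 0.05. Fold changes above 0 on the log2 scale stand for a higher level in the first of the groups named, and the added 1 makes fold changes of low genes smaller.

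Over the 16 libraries the median level was highest for S100a8, at 71.7 RPKM, followed by S100a9 at 46.8, Retnlg at 13.7, Il1b at 11.2, Csf3r at 6.79, Trem1 at 2.10, Ngp at 1.28, Il1r2 at 1.09 and Camp at 0.444 RPKM. S100a8 stood above S100a9, S100a9 above Retnlg and Csf3r above Trem1 in 16 of 16 libraries. Retnlg was above Il1b in 12 of 16, and Ngp above Il1r2 in 8 of 16, so that the members of the last pair cannot be ranked.

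**Figure D1:**
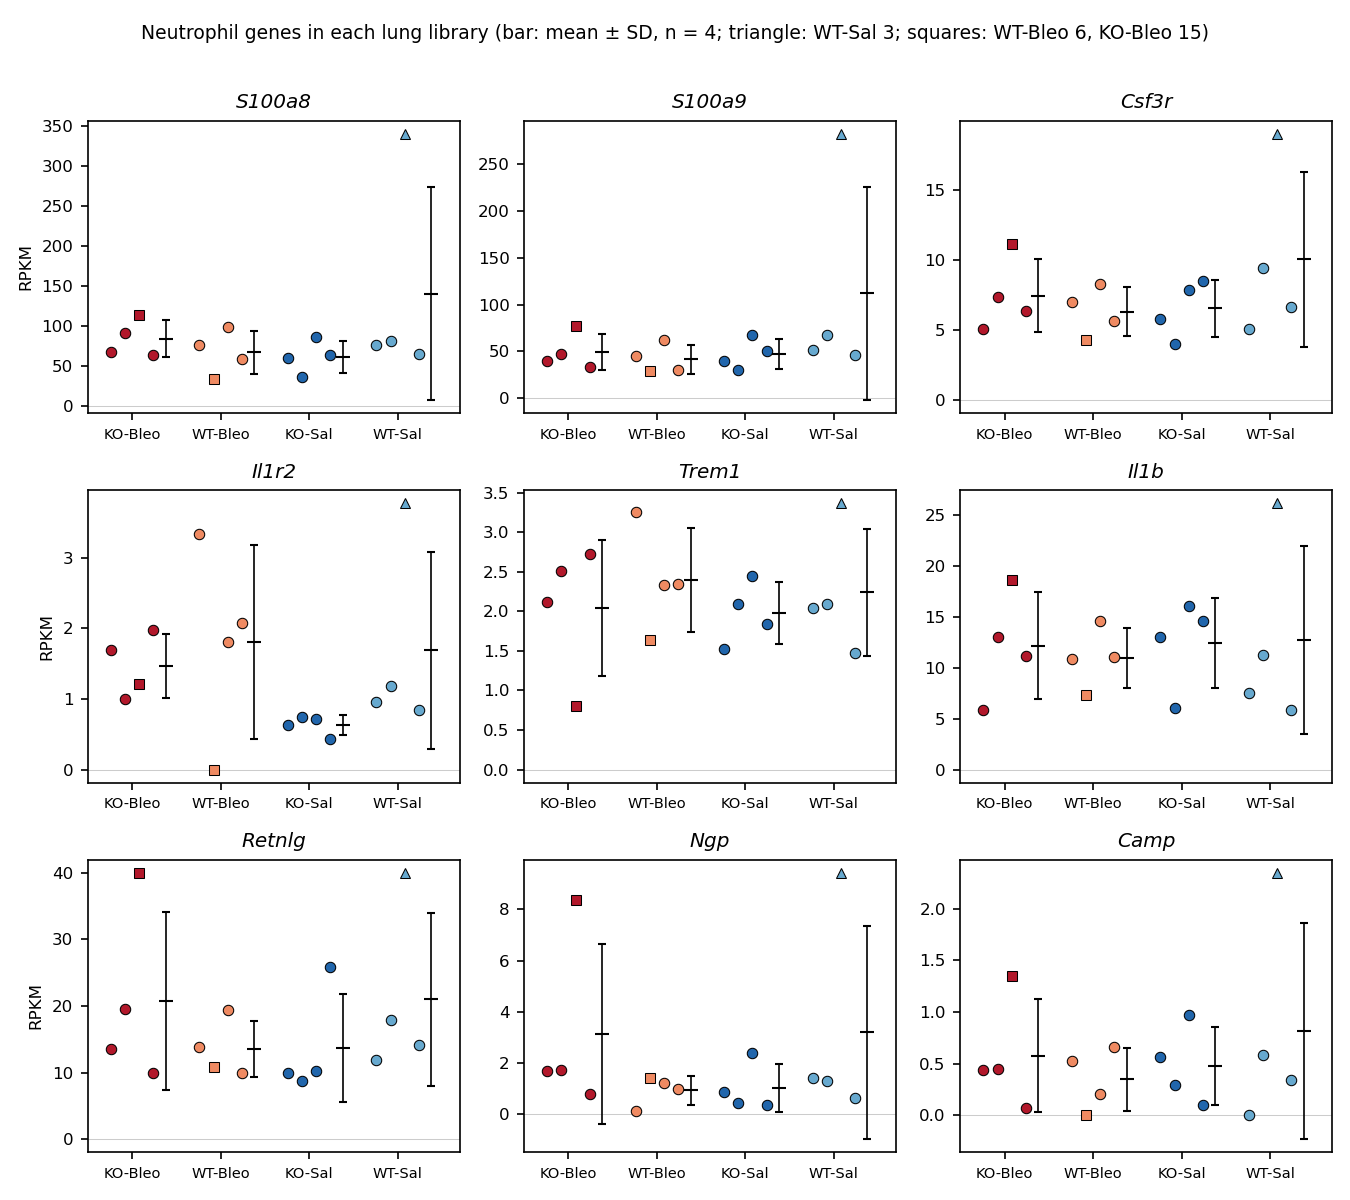
Level of each of the 9 genes in RPKM (vertical axis, linear, a separate scale per gene) in the 4 libraries of each group, with the group mean and SD (n = 4) as a bar to the right of the points. The triangle, WT-Sal replicate 3, is the highest of the 16 libraries in all 9 panels, and the squares are the shallow libraries WT-Bleo replicate 6 and KO-Bleo replicate 15.

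WT-Sal replicate 3 had the highest value of all 16 libraries for 9 of the 9 genes, while it was the highest library for 3.55% of all listed genes. Its level was 1.803 times the mean of the other WT-Sal libraries for Trem1, 2.69 times for Csf3r, 2.73 times for Retnlg, 3.17 times for Il1b, 3.78 times for Il1r2, 4.60 times for S100a8, 5.12 times for S100a9, 7.60 times for Camp and 8.37 times for Ngp. The 9 genes summed to 726.8 RPKM in this library, against 141 to 192 RPKM in the other WT-Sal libraries and 88.3 to 272 RPKM in the other 15 libraries together. Every comparison with WT-Sal below rests in part on this library, so log2 fold changes without it are given beside those with it. The library held 23481714 reads and had a median correlation of 0.993 with its own group across genes, inside the range of the other deep libraries.

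Marker lists of other cells were also summed in that library. The summed level of 5 listed erythroid genes was 48.8 RPKM in WT-Sal replicate 3, within the 29.96 to 67.8 RPKM of the other WT-Sal libraries. The 8 classical monocyte markers summed to 858 RPKM, against 646 to 768 RPKM in the other WT-Sal libraries, and the 11 markers of interstitial and recruited macrophages to 376 RPKM, against 317 to 354 RPKM. The 12 listed genes of specific and gelatinase granules summed to 609 RPKM, against 511 to 568 RPKM, and 21 other listed genes of mature neutrophils to 290.2 RPKM, against 194 to 220.2 RPKM. Sums weigh abundant genes most, and single genes of these lists, picked after seeing the data, differed. Mmp9 had 9.50 RPKM against 2.67 to 3.75, Cxcr2 16.5 against 4.64 to 6.90, and Clec4d 7.66 against 2.16 to 2.95. Lcn2 had 135 RPKM against 99.8 to 123, and Adam8 6.09 against 5.26 to 6.84. The 10 alveolar macrophage markers summed to 783 RPKM, against 646 to 723 RPKM. Chil3 is in both this list and that of classical monocytes, so their sums are not independent. The part of monocytes and macrophages in the members' levels of this library was not tested.

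S100a8 and S100a9 encode the subunits of calprotectin, a calcium- and zinc-binding complex of neutrophils and monocytes that starves microbes of metal ions and signals through pattern recognition receptors. The genes lie side by side on chromosome 3 of GRCm38 (S100a8, gene ID 20201, 90669071 to 90670034, and S100a9, gene ID 20202, 90692630 to 90695721), with 22.6 kb between them. Their promoter windows from RefSeq (GRCm38.p6), 250 bases before to 50 after the annotated start and written 5′ to 3′ on the strand of the gene, are shown because these neighbours followed each other most closely across the lungs. Capitals mark matches on either strand to the letters TTNNGNAA (a C/EBP core), GAGGAA (PU.1) and TATAAA, the names of factors that direct myeloid transcription and of the TATA box.
S100a8, chr3:90668821-90669120, plus strand: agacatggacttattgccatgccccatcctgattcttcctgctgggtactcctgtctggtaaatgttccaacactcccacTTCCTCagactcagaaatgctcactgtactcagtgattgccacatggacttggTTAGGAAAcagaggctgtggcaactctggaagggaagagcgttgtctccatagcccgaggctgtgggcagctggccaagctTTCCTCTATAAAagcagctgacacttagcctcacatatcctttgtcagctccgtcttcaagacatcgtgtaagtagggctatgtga
S100a9, chr3:90695672-90695971, minus strand: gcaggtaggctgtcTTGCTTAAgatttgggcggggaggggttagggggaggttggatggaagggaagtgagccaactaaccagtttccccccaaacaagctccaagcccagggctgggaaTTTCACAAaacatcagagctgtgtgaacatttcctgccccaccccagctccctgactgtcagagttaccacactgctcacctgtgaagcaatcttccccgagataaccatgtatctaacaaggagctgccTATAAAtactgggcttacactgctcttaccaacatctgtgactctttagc
In the S100a8 window TATAAA lies at -30 to -25 from the start, directly after a PU.1 match on the other strand at -36 to -31, with a further PU.1 match at -170 to -165, and a C/EBP match lies at -117 to -110. The S100a9 window holds C/EBP matches at -236 to -229 and -130 to -123, and TATAAA from 0 to 5. The C/EBP letters occurred in 6 of the 9 members' windows and in 40.7% of the 32851 promoter windows of the same length, GAGGAA in 3 of 9 and 28.3%, and TATAAA in 3 of 9 and 13.6%. No matches to different motifs overlapped in either window, and a match is a description of the letters only.

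S100a8 had 67.4, 90.8, 113.6 and 64.0 RPKM in KO-Bleo, 76.5, 33.8, 98.1 and 58.2 RPKM in WT-Bleo, 59.4, 36.5, 85.5 and 63.5 RPKM in KO-Sal, and 76.0, 81.1, 340.1 and 64.6 RPKM in WT-Sal. The groups overlapped in every comparison, and the 340.1 RPKM of WT-Sal replicate 3 stood alone. The value of 33.8 RPKM in WT-Bleo rests on 8 reads of the shallow replicate 6, and that of 113.6 RPKM in KO-Bleo on 55 reads of replicate 15. S100a8 averaged 83.9 ± 23.1 RPKM in KO-Bleo and 61.2 ± 20.1 RPKM in KO-Sal (SD, n = 4 each), a log2 fold change of 0.47 with a standard error of 0.26 (limma adjusted p = 0.216). In wildtype lungs it averaged 66.7 ± 27.3 RPKM in WT-Bleo and 140.4 ± 133.3 RPKM in WT-Sal (log2 fold change -0.79, standard error 0.51, adjusted p = 0.282). Without WT-Sal replicate 3 the saline mean was 73.9 ± 8.46 RPKM (SD, n = 3) and the log2 fold change -0.24. In knockout lungs it was 0.31 without the shallow KO-Bleo replicate 15.

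S100a9 had 39.4, 47.0, 76.7 and 33.3 RPKM in KO-Bleo, 45.2, 28.95, 62.4 and 29.96 RPKM in WT-Bleo, 39.9, 29.9, 67.7 and 50.8 RPKM in KO-Sal, and 51.8, 67.3, 282.7 and 46.5 RPKM in WT-Sal. KO-Bleo overlapped KO-Sal, and WT-Bleo reached below the lowest WT-Sal library in 3 of 4 libraries. Its log2 fold changes were 0.05 in KO-Bleo against KO-Sal (adjusted p = 0.926), -1.04 in WT-Bleo against WT-Sal (adjusted p = 0.165) and 0.23 in KO-Bleo against WT-Bleo (adjusted p = 0.763). The wildtype value was -0.45 without WT-Sal replicate 3. Without the shallow libraries the knockout value was -0.19 and that between the bleomycin groups -0.15. The ratio of S100a9 to S100a8 within a library was 0.518 to 0.675 in KO-Bleo and 0.672 to 0.820 in KO-Sal (exact two-sided permutation p = 0.0571, adjusted p = 0.343 over 24 such tests). In WT-Bleo it was 0.515 to 0.857 and in WT-Sal 0.682 to 0.831, where the 0.857 came from 12 reads of the shallow replicate 6 (exact permutation p = 0.200).

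The granule genes among the members are made mainly during maturation in the marrow. Ngp encodes neutrophilic granule protein (gene ID 18054, chromosome 9, 110419808 to 110423012) and Camp the mouse cathelicidin, an antimicrobial peptide (gene ID 12796, chromosome 9, 109847377 to 109849456), 570.4 kb apart. Ngp had 1.68, 1.75, 8.37 and 0.790 RPKM in KO-Bleo, 0.136, 1.43, 1.23 and 0.978 RPKM in WT-Bleo, 0.874, 0.455, 2.38 and 0.354 RPKM in KO-Sal, and 1.44, 1.32, 9.43 and 0.623 RPKM in WT-Sal. The 2 high values were those of KO-Bleo replicate 15, from 12 reads, and of WT-Sal replicate 3, from 257 reads. Its log2 fold change was 0.83 in KO-Bleo against KO-Sal (standard error 0.50, adjusted p = 0.263) and -0.74 in WT-Bleo against WT-Sal (standard error 0.51, adjusted p = 0.313). Without KO-Bleo replicate 15 the first was 0.33, and without WT-Sal replicate 3 the second was -0.16. In KO-Bleo against WT-Bleo the log2 fold change of Ngp was 0.84 (standard error 0.47, limma adjusted p = 0.533). It ranged from 0.34 to 1.14 when single libraries were left out. The paper lists Ngp among the genes upregulated in knockout mice under bleomycin.

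Camp was the lowest member, with 0.441, 0.446, 1.35 and 0.0765 RPKM in KO-Bleo, 0.526, 0, 0.208 and 0.664 RPKM in WT-Bleo, 0.564, 0.294, 0.967 and 0.0979 RPKM in KO-Sal, and 0, 0.581, 2.35 and 0.345 RPKM in WT-Sal. Outside WT-Sal replicate 3, which had 33 reads, no library had more than 9 reads of it. The 0 reads of WT-Bleo replicate 6 allow up to 8.29 RPKM and those of WT-Sal replicate 1 up to 0.643 RPKM, taking 3 reads as the limit of a count of 0, which covers counting error only. At this depth no change of Camp was detectable, with log2 fold changes of -0.30 to 0.20 over the 4 pairwise comparisons. The wildtype value was 0.04 without WT-Sal replicate 3.

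Retnlg encodes resistin-like gamma, a small secreted protein of marrow and blood neutrophils in mice (gene ID 245195, chromosome 16, 48872608 to 48874498). It had 13.6, 19.5, 39.95 and 9.88 RPKM in KO-Bleo, 13.9, 10.9, 19.4 and 9.99 RPKM in WT-Bleo, 9.92, 8.78, 10.3 and 25.9 RPKM in KO-Sal, and 11.8, 17.96, 39.99 and 14.1 RPKM in WT-Sal. KO-Sal replicate 12 stood above its group for Retnlg, at 25.9 RPKM, while its S100a8 of 63.5 RPKM lay inside it. The log2 fold changes were 0.51 in KO-Bleo against KO-Sal (adjusted p = 0.457), -0.48 in WT-Bleo against WT-Sal (adjusted p = 0.318) and 0.44 in KO-Bleo against WT-Bleo (adjusted p = 0.656). Without the shallow libraries the first was 0.14 and the last -0.01, and without WT-Sal replicate 3 the wildtype value was -0.13.

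Of the receptors, Csf3r encodes the receptor for granulocyte colony-stimulating factor, the main growth factor of the lineage (gene ID 12986, chromosome 4, 126023441 to 126044975). It had 5.04, 7.32, 11.1 and 6.32 RPKM in KO-Bleo, 6.97, 4.30, 8.29 and 5.67 RPKM in WT-Bleo, 5.76, 4.02, 7.87 and 8.48 RPKM in KO-Sal, and 5.09, 9.44, 19.0 and 6.61 RPKM in WT-Sal. All 4 groups covered the interval from 5.09 to 8.29 RPKM, and only the highest value of KO-Bleo and those of WT-Sal replicates 2 and 3 exceeded it by more than 1 RPKM. The log2 fold change was 0.16 in KO-Bleo against KO-Sal (adjusted p = 0.667) and -0.47 in WT-Bleo against WT-Sal (adjusted p = 0.321). The wildtype value was -0.13 without WT-Sal replicate 3.

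Trem1 encodes a receptor that amplifies inflammatory signals in neutrophils and monocytes through the adaptor encoded by Tyrobp (gene ID 58217, chromosome 17, 48232713 to 48246927). It had 2.11, 2.51, 0.803 and 2.73 RPKM in KO-Bleo, 3.25, 1.64, 2.33 and 2.35 RPKM in WT-Bleo, 1.53, 2.10, 2.45 and 1.84 RPKM in KO-Sal, and 2.04, 2.09, 3.36 and 1.47 RPKM in WT-Sal. The lowest value, in KO-Bleo replicate 15, and the 1.64 RPKM of WT-Bleo replicate 6 rest on 3 reads each. Its log2 fold changes lay between -0.19 and 0.08 in the 4 pairwise comparisons, with adjusted p of 0.761 or higher from limma. Trem1 had 0.23 in WT-Bleo against WT-Sal without WT-Sal replicate 3.

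Il1r2 encodes the decoy receptor for interleukin-1, which binds the cytokine without passing on a signal, and is found on neutrophils, monocytes and some other cells (gene ID 16178, chromosome 1, 40084692 to 40125230). It had 1.69, 0.994, 1.21 and 1.98 RPKM in KO-Bleo (43, 25, 2 and 58 reads) and 0.629, 0.742, 0.718 and 0.437 RPKM in KO-Sal (15, 17, 15 and 10 reads). All 4 KO-Bleo libraries were above all 4 KO-Sal libraries. It averaged 1.47 ± 0.449 RPKM in KO-Bleo and 0.631 ± 0.139 RPKM in KO-Sal (SD, n = 4 each), a log2 fold change of 0.58 with a standard error of 0.13 (limma adjusted p = 0.0116, exact permutation p = 0.0286, the smallest that 4 against 4 allows, and 0.514 when adjusted over 36 such tests). So 1 of 9 members was called in this comparison, where 23.6% of all genes were called and 13.2% were called higher, and 1 of 9 did not overlap between groups, where 28.1% of all genes did not. The log2 fold change was 1.08 with a pseudocount of 0.1 and 1.26 by limma-voom on whole reads, both called (adjusted p = 0.0128 and 0.00781). The call was lost when the spread was estimated over all 4 groups (log2 fold change 0.58, adjusted p = 0.262) and when the level of erythroid genes was a covariate (0.50, adjusted p = 0.271), and it remained without the shallow KO-Bleo replicate 15 (log2 fold change 0.63, adjusted p = 0.0104).

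In wildtype lungs Il1r2 had 3.34, 0, 1.804 and 2.07 RPKM in WT-Bleo and 0.955, 1.19, 3.77 and 0.846 RPKM in WT-Sal. The bleomycin library at 0 was the shallow replicate 6, whose 0 reads allow up to 3.69 RPKM, and the saline library at 3.77 RPKM was replicate 3, from 119 reads. With all libraries the log2 fold change was -0.00 (standard error 0.45, adjusted p = 0.996), and without WT-Sal replicate 3 it was 0.31. Without both, a choice made after seeing the data, it was 0.75 (adjusted p = 0.00596), which called Il1r2 in wildtype lungs as well. The difference between the bleomycin changes of the genotypes was 0.59 (standard error 0.51, adjusted p = 0.674) and -0.12 without WT-Sal replicate 3 and both shallow libraries, so no difference between genotypes in this change was shown.

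Under saline Il1r2 was lower in all 4 KO-Sal libraries than in all 4 WT-Sal libraries (log2 fold change -0.61, standard error 0.26, unadjusted p = 0.0442, adjusted p = 0.293, exact permutation p = 0.0286). In this comparison 0.0488% of all genes were called and 9.66% did not overlap between groups, against 0 of 9 and 1 of 9 members. Without WT-Sal replicate 3 the log2 fold change was -0.29 (adjusted p = 0.274). The promoter window of Il1r2 is shown for the member that was called.
Il1r2, chr1:40085843-40086142, plus strand: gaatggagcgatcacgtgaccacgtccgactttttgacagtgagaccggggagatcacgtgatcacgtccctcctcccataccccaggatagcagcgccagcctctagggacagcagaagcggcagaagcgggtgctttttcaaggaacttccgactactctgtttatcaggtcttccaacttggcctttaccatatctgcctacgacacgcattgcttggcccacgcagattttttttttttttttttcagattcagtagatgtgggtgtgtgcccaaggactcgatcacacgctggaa
It holds none of the 3 motifs, hence no capitals, and lies inside the annotated span of the gene. No match says only that these letters are not in this window.

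Il1b encodes interleukin-1 beta, the inflammatory cytokine that IL1R2 binds, made by neutrophils, monocytes and macrophages (gene ID 16176, chromosome 2, 129364569 to 129371164). It had 5.88, 13.04, 18.6 and 11.1 RPKM in KO-Bleo, 10.9, 7.37, 14.6 and 11.04 RPKM in WT-Bleo, 13.04, 6.01, 16.1 and 14.6 RPKM in KO-Sal, and 7.52, 11.3, 26.2 and 5.90 RPKM in WT-Sal. The group means were close, at 12.2 ± 5.26, 10.95 ± 2.94, 12.4 ± 4.46 and 12.7 ± 9.24 RPKM (SD, n = 4 each) in KO-Bleo, WT-Bleo, KO-Sal and WT-Sal. None of the pairwise log2 fold changes was larger than 0.10 in size, with limma adjusted p of 0.937 or higher. Leaving out WT-Sal replicate 3 gave 0.38 in WT-Bleo against WT-Sal and 0.50 in KO-Sal against WT-Sal, neither called (limma adjusted p = 0.293 and 0.595).

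Set against S100a8 in the same library, a measure chosen after seeing the data, Il1b in WT-Sal lay apart from KO-Sal and WT-Bleo but overlapped KO-Bleo. The ratio of Il1b to S100a8 was 0.165 to 0.230 in KO-Sal and 0.0769 to 0.139 in WT-Sal, with no overlap (difference in log2 ratio 1.0, exact two-sided permutation p = 0.0286). It was 0.142 to 0.218 in WT-Bleo, also above WT-Sal (difference 0.79, exact permutation p = 0.0286). Both comparisons share the WT-Sal libraries, and after adjustment over 24 ratio tests both exact permutation tests had p = 0.343, so neither passed. In KO-Bleo the ratio was 0.0872 to 0.174, which overlapped the 0.165 to 0.230 of KO-Sal (exact permutation p = 0.0571) and the 0.142 to 0.218 of WT-Bleo (exact permutation p = 0.343).

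**Figure D2:**
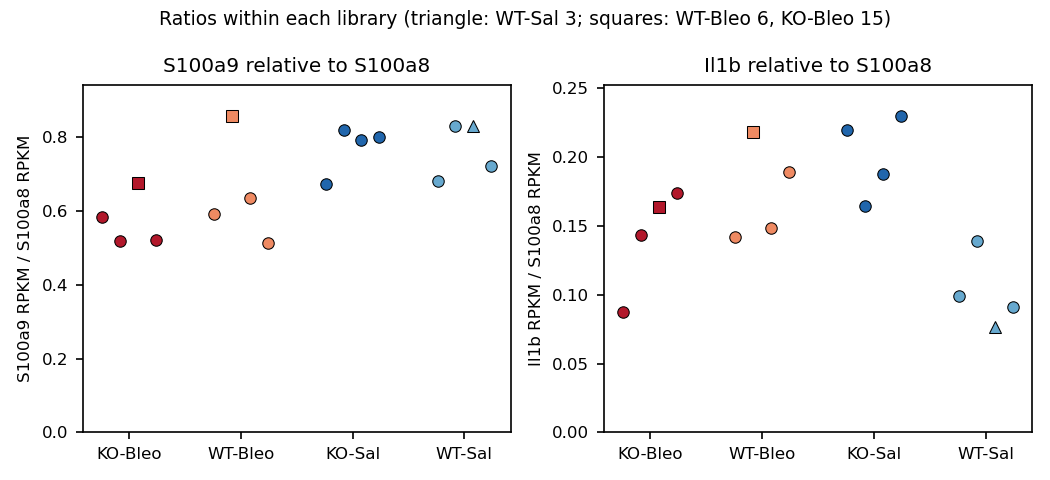
Ratio of the RPKM of S100a9 (left) and Il1b (right) to that of S100a8 in the same library, by group, 1 point per library. The Il1b ratios of the 4 WT-Sal libraries, from 0.0769 to 0.139, lie below those of KO-Sal and WT-Bleo, and WT-Sal replicate 3 (triangle) is the highest of its group for S100a9, at 0.831, and the lowest for Il1b. Squares are the shallow libraries.

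Taken over the members, bleomycin gave no shared direction that the test passed. In wildtype lungs 0 of 9 members were called by limma in WT-Bleo against WT-Sal, where 30.9% of all genes were called, 18.6% higher and 12.3% lower. None had an unadjusted p under 0.05 (background 41%), none passed that p with a change of at least 1.5-fold (background 11.1%), and in none were the groups apart (background 34.1%). Their median log2 fold change was -0.47, with 7 below 0, 1 above and Il1r2 at -0.00, beside 0.01 over all genes. Without WT-Sal replicate 3 that median was -0.13, and without the shallow libraries as well it was 0.05, with 6 above 0, 3 below and 1 called. In knockout lungs the median was 0.16 beside -0.01 over all genes, with 7 members above 0, 1 of 9 at an unadjusted p under 0.05 (background 37%) and 0 of 9 at that p with at least 1.5-fold (background 7.45%), a fold that Il1r2 missed at 0.58 with the pseudocount of 1 and passed at 1.08 with 0.1. Over 4 pairwise comparisons and the difference between genotypes, Il1r2 in KO-Bleo against KO-Sal was the only call.

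Between genotypes 0 of 9 members were called in KO-Bleo against WT-Bleo, where 0.214% of all genes were called, 0.122% higher and 0.0916% lower. At an unadjusted p under 0.05 there were 0 of 9 members and 11.1% of all genes, with at least 1.5-fold as well 0 of 9 and 1.26%, and with groups apart 0 of 9 and 8.48%. Ngp, which the paper lists as upregulated here at its cut-offs of 0.05 for p and 1.5-fold, had an unadjusted limma p of 0.104. The paper's values come from its own processing, while the added 1 makes the fold change of a low gene smaller here. Of the neutrophil lists below, the paper also has Cd177 and Cxcr1 as upregulated and Prtn3 as downregulated, and none was called here. Over the members the median log2 fold change was 0.20 beside 0.01 over all genes. Without both shallow libraries it was -0.14, with 8 of 9 members below 0. In KO-Sal against WT-Sal the median was -0.55 beside 0.03 over all genes, with 8 of 9 below 0, and -0.16 with 6 of 9 below 0 without WT-Sal replicate 3. There 0.0183% of all genes were called higher and 0.0305% lower. Il1r2 was the 1 of 9 members at an unadjusted p under 0.05, as were 16.2% of all genes, and with at least 1.5-fold 1 of 9 remained, beside 0.861% of all genes. The change with bleomycin in knockout lungs minus that in wildtype lungs had a median of 0.63 over the members and -0.02 over all genes, with 0 of 9 called by limma (background 0.22%, 0.14% higher and 0.0794% lower). None was at an unadjusted p under 0.05 (background 11%), or at that p with at least 1.5-fold (background 2.06%). The largest differences were those of Ngp, 1.57 ± 0.79 (estimate ± standard error, adjusted p = 0.480), and S100a8, 1.26 ± 0.65 (adjusted p = 0.487), which were 0.99 and 0.71 without WT-Sal replicate 3. Without WT-Sal replicate 3 and both shallow libraries the median difference was -0.04, with 4 members above 0 and 5 below.

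**Figure D3:**
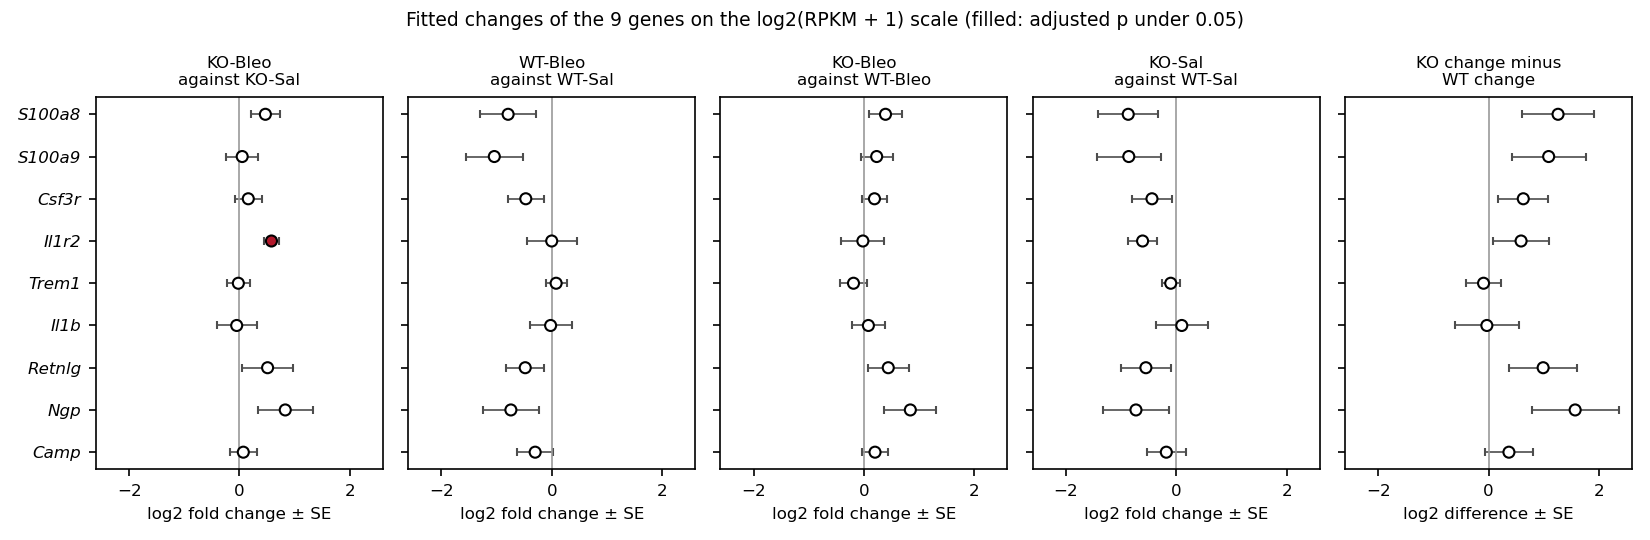
Fitted log2 fold change of each gene (rows) with its standard error in the 4 pairwise comparisons and, in the last panel, the bleomycin change in knockout lungs minus that in wildtype lungs, on the log2(RPKM + 1) scale. The only filled point, adjusted p under 0.05, is Il1r2 in KO-Bleo against KO-Sal at 0.58.

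The members' levels were also compared with each other across libraries. Over the 16 libraries, log2 levels of S100a8 and S100a9 had a Pearson r of 0.94 (permutation p = 1e-05, the smallest that 100000 permutations can give) and a Spearman rho of 0.88 (permutation p = 4e-05). Leaving out the 2 libraries farthest from the median of S100a8 gave r = 0.83, and subtracting group means gave r = 0.96. Csf3r followed S100a8 with r = 0.91 and rho = 0.78 (permutation p = 1e-05 and 0.00049) and S100a9 with r = 0.92 and rho = 0.86. Of 36 pairs of members, 23 had an adjusted permutation p under 0.05 for r and 10 for rho.

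Trem1 and Il1r2 followed the others least. Trem1 had r between -0.15 and 0.32 with every member except Il1r2, with which it had r = 0.62 (rho = 0.65, permutation p = 0.0111 and 0.00732). Il1r2 had r = 0.65 with S100a8, which fell to 0.20 without the 2 libraries farthest from the median of S100a8, so that this relation rests on those libraries. Without WT-Sal replicate 3, 16 of the 36 pairs had r over 0.5, against 24 with it. Libraries share their depth and RNA among all these genes, and Ngp, Camp and Il1r2 rest on few reads in most of them. The lowest Trem1 value came from 3 reads of the shallow KO-Bleo replicate 15, a library in which most members ranked second.

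**Figure D4:**
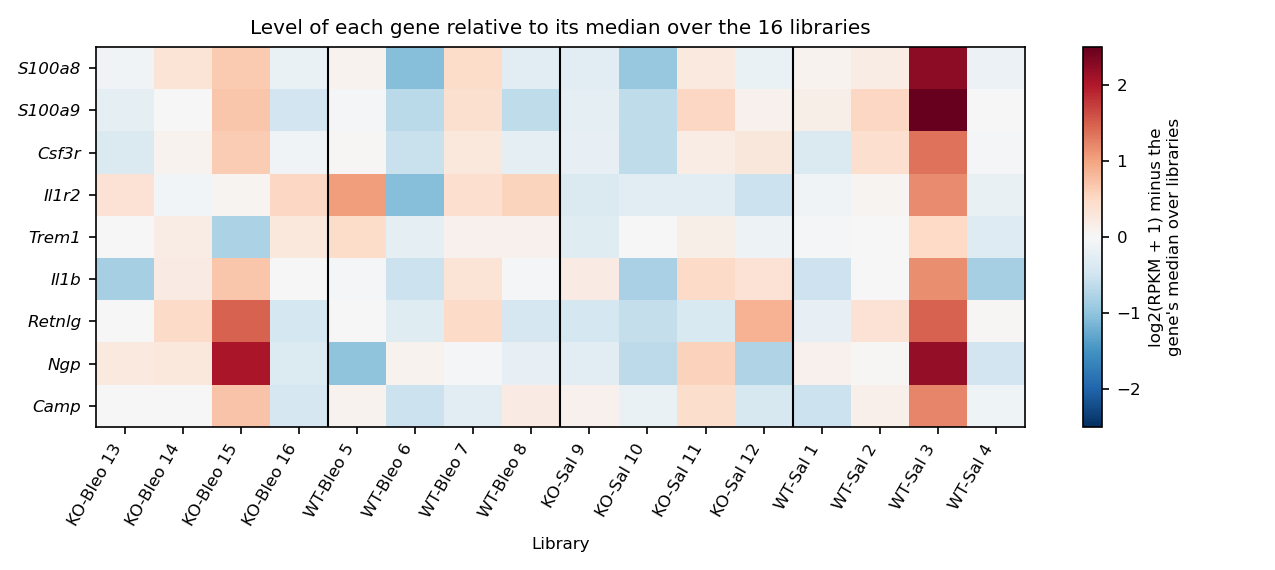
Level of each gene (rows) in each library (columns, grouped by the black lines) as log2(RPKM + 1) minus the gene's median over the 16 libraries. WT-Sal 3 is above the median for all 9 genes, and Trem1 and Il1r2 show a pattern of their own. The shallow KO-Bleo 15, which is the highest library for 15.6% of all listed genes, is the second highest for 7 of the 9.

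Outside the members, Cxcr2, the receptor for neutrophil-attracting CXC chemokines, had the pattern most like the mean of the members' standardized log2 levels over the 16 libraries (r = 0.94, and 0.83 without WT-Sal replicate 3), among 13310 genes whose log2 level averaged 1 or more. Cxcr2 had 5.18 to 6.39 RPKM in KO-Bleo, 2.72 to 6.34 RPKM in WT-Bleo, 3.84 to 6.26 RPKM in KO-Sal, and 4.64 to 16.5 RPKM in WT-Sal, with its highest value in WT-Sal replicate 3. It was called in none of the 4 pairwise comparisons (limma adjusted p from 0.279 to 0.725). Next came Slfn4, a myeloid schlafen gene (r = 0.85), Fgl2 (0.83), Lsp1, a leukocyte actin-binding protein (0.83), Trim30b (0.80), Siglece, an inhibitory receptor of myeloid cells (0.79), Trem3, a relative of Trem1 (0.78), Mmp9, a gelatinase of neutrophil granules (0.78), Slfn1 (0.77) and Il1f9, an interleukin-1 family cytokine (0.76). The r of Mmp9 was 0.33 without WT-Sal replicate 3. Of the 10 genes, 9 were highest in that library. The genes most like Il1r2 were Tusc3 (r = 0.86), Siglece and Fam162a (0.83 each), and those most like Trem1 were Pmvk (0.88), Vti1b (0.86) and Ubb (0.84). Among these, Siglece was also one of the genes most like the mean of the members. These matches rest in part on the shallow libraries. Il1r2, Tusc3, Siglece and Fam162a were all lowest in WT-Bleo replicate 6, with 0, 27, 1 and 12 reads. Trem1, Pmvk and Vti1b were lowest in KO-Bleo replicate 15, with 3, 31 and 66 reads, and Ubb in WT-Bleo replicate 6.

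Other genes known from neutrophils were counted in the same comparisons, with no test of a difference from the members. Of 12 listed genes of specific and gelatinase granules, 8 were called higher in KO-Bleo against KO-Sal and 8 in WT-Bleo against WT-Sal, with 0 lower in either, where 13.2% and 18.6% of all genes were called higher and 10.4% and 12.3% lower. Their median log2 fold change was 0.70 in knockout and 0.80 in wildtype lungs. Lcn2, which encodes lipocalin 2, a siderophore-binding protein of neutrophil granules that epithelium also makes, had 776, 528, 534 and 855 RPKM in KO-Bleo against 137, 128, 124 and 90.6 RPKM in KO-Sal (a log2 difference of 2.47, limma adjusted p = 2.56e-05). In wildtype lungs Lcn2 had 610.4, 493, 480.5 and 542 RPKM in WT-Bleo against 99.8, 118, 135 and 123 RPKM in WT-Sal (log2 fold change 2.15, adjusted p = 1.04e-06), so the groups were far apart where those of S100a8 overlapped. Lcn2 in WT-Sal replicate 3, at 135 RPKM, stood beside 123 RPKM in the next library of its group.

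Cd177, a surface glycoprotein of neutrophils, had 12.8, 6.28, 7.16 and 41.1 RPKM in KO-Bleo against 3.03, 1.99, 1.99 and 1.64 RPKM in KO-Sal (a log2 difference of 2.13, adjusted p = 0.0173). It had 11.9, 9.76, 6.47 and 6.05 RPKM in WT-Bleo against 1.04, 1.31, 1.59 and 1.45 RPKM in WT-Sal (log2 fold change 1.99, adjusted p = 5.95e-05). Itgam, the integrin alpha M chain of neutrophils, monocytes and macrophages, rose by log2 fold changes of 1.32 in KO-Bleo (adjusted p = 0.000109) and 1.24 in WT-Bleo (adjusted p = 0.000378), and Cyba, a subunit of the NADPH oxidase of the same cells, by 0.65 (adjusted p = 0.00311) and 0.79 (adjusted p = 2.57e-05). In the same comparisons 11 of 11 markers of interstitial and recruited macrophages were called higher, beside 13.2% (knockout) and 18.6% (wildtype) of all genes. Their summed level was 1424 to 2391 RPKM in KO-Bleo against 289 to 426 RPKM in KO-Sal, and 2203 to 2500.0 RPKM in WT-Bleo against 317 to 376 RPKM in WT-Sal. Their part in the rise of genes that macrophages also express was not tested.

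Among 21 listed genes of mature neutrophils outside the members, 7 were called higher and 3 lower in KO-Bleo against KO-Sal, and 6 higher and 5 lower in WT-Bleo against WT-Sal, beside 13.2% higher and 10.4% lower of all genes in knockout and 18.6% and 12.3% in wildtype lungs. Their median log2 fold change was 0.21 in knockout and -0.22 in wildtype lungs. Fpr1 and Fpr2, receptors for formyl peptides, and G0s2, named here after their values were seen, were called lower in both comparisons. The log2 fold changes in KO-Bleo and WT-Bleo were -0.97 and -0.85 for Fpr1, -0.82 and -1.47 for Fpr2, and -1.03 and -0.84 for G0s2. Adam8, a membrane protease, had 17.0 ± 2.02 RPKM in KO-Bleo and 6.62 ± 1.02 RPKM in KO-Sal (SD, n = 4 each, fitted difference 1.24 on the log2 scale, adjusted p = 8.30e-05). Clec4d, a C-type lectin receptor of myeloid cells, had a log2 fold change of 1.82 in KO-Bleo against KO-Sal (adjusted p = 8.24e-05) and of 1.36 in WT-Bleo against WT-Sal (adjusted p = 0.00449). Lrg1, a secreted glycoprotein, rose by 1.48 (adjusted p = 0.000178) and 1.89 (adjusted p = 4.17e-05), and Cd300lf, an inhibitory myeloid receptor, by 1.23 (adjusted p = 8.75e-05) and 1.14 (adjusted p = 5.53e-05). Ly6g and 4 other genes of that list were not found by symbol among the listed genes. Of 8 azurophil granule and precursor genes only Prtn3 and Gfi1 were found, with 0 called and summed levels under 1.70 RPKM in every library.

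**Figure D5:**
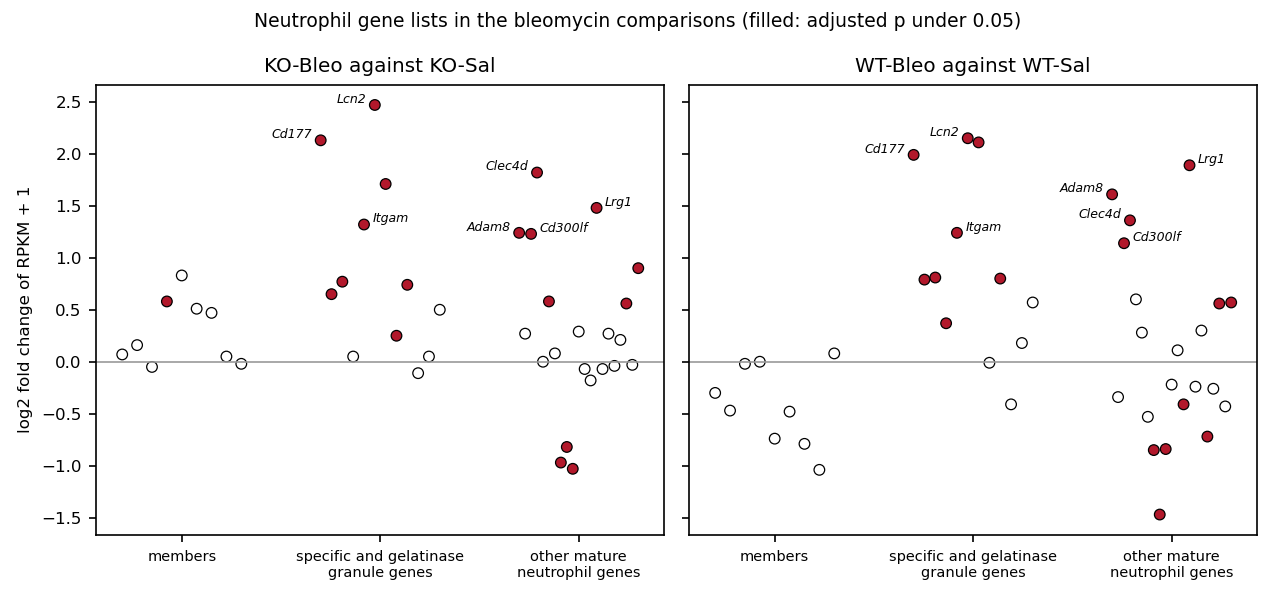
Log2 fold change of each listed gene on the log2(RPKM + 1) scale in KO-Bleo against KO-Sal (left) and WT-Bleo against WT-Sal (right), for the 9 members, 12 genes of specific and gelatinase granules and 21 other genes of mature neutrophils. Filled points have an adjusted p under 0.05: 1 of 9, 8 of 12 and 10 of 21 on the left, and 0 of 9, 8 of 12 and 11 of 21 on the right.

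Around Il1b and Il1r2, 6 of 18 other genes of the interleukin-1 system were called higher and 1 lower in KO-Bleo against KO-Sal, and 8 higher and 1 lower in WT-Bleo against WT-Sal. Of all genes 13.2% were called higher and 10.4% lower in knockout lungs, and 18.6% and 12.3% in wildtype lungs. The median log2 fold change of the list was 0.21 in knockout and 0.20 in wildtype lungs. Il1rn, the receptor antagonist that blocks interleukin-1, had 7.98, 7.42, 8.86 and 7.90 RPKM in KO-Bleo against 4.50, 4.28, 5.04 and 4.43 RPKM in KO-Sal (a log2 difference of 0.70, adjusted p = 0.000251). It had 8.73, 13.9, 10.7 and 11.4 RPKM in WT-Bleo against 4.26, 3.804, 4.64 and 4.56 RPKM in WT-Sal (log2 fold change 1.18, adjusted p = 0.000101). Pycard, the inflammasome adaptor, Il18bp and Il33 were called higher in both comparisons, with log2 fold changes from 0.36 to 0.80.

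Of 9 listed neutrophil attractants and growth factors, 1 was called higher and 1 lower in KO-Bleo against KO-Sal, and 3 higher and 3 lower in WT-Bleo against WT-Sal, where all genes had 13.2% higher and 10.4% lower in knockout and 18.6% and 12.3% in wildtype lungs. Cxcl1, a ligand of CXCR2, had 3.90, 3.04, 2.56 and 5.65 RPKM in KO-Bleo against 1.78, 1.30, 2.24 and 1.36 RPKM in KO-Sal (a log2 difference of 0.82, adjusted p = 0.0125). It had 3.90, 1.74, 4.72 and 3.29 RPKM in WT-Bleo against 1.22, 0.733, 0.404 and 0.980 RPKM in WT-Sal (log2 fold change 1.24, adjusted p = 0.00286). Its lowest value of all, from 9 reads, was in WT-Sal replicate 3, where the members were highest. The other WT-Sal libraries held 9 or 10 reads of Cxcl1, and a relation to the members was not tested. Its 1.74 RPKM in WT-Bleo replicate 6 and 2.56 RPKM in KO-Bleo replicate 15 rest on 1 and 3 reads. Csf2 was called lower in WT-Bleo than in WT-Sal (log2 fold change -1.07, adjusted p = 0.00704) and had -0.36 in knockout lungs (adjusted p = 0.0733). Both values rest in part on the shallow libraries, with 0 reads of Csf2 in WT-Bleo replicate 6 and 2.35 RPKM from 3 reads in KO-Bleo replicate 15.

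In the families of the members, 6 of 13 other S100 genes and receptors were called higher and 0 lower in KO-Bleo against KO-Sal, and 7 higher and 0 lower in WT-Bleo against WT-Sal, among them S100a4 and S100a14 with log2 fold changes of 1.39 to 2.25. The shares of all genes were 13.2% higher and 10.4% lower in knockout lungs, and 18.6% and 12.3% in wildtype lungs. Of 9 genes of the TREM family and its adaptors, 2 were called higher in each comparison, near these shares of all genes. With 0 lower in knockout and 1 lower in wildtype lungs, their median was 0.20 and -0.32. Those higher were Trem2, a receptor of lipid-handling macrophages (log2 fold changes 3.12 in KO-Bleo and 3.57 in WT-Bleo), and Tyrobp (1.12 and 1.04), and the lower was Treml4 (-0.73 in WT-Bleo, adjusted p = 0.000332, and -0.23 in KO-Bleo, adjusted p = 0.417). In the 2 comparisons between genotypes, 0 genes were called by limma in any of these lists. At an unadjusted p under 0.05 the bleomycin groups held 4 of the 12 granule genes and 4 of the 21 mature neutrophil genes, beside 11.1% of all genes. At the same p the saline groups held 3 of the 12 and 7 of the 21, beside 16.2% of all genes. The saline comparison rests in part on WT-Sal replicate 3.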

How the data were processed

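Lung RNA was sequenced in 16 libraries. The submitters' processing notes name bcl2fastq, CASAVA 1.8, TopHat, DESeq and the mm10 build, with no role or order. The deposited table holds RPKM values per library made by the authors, a unit inferred from the values, since whole reads could be recovered for 99.9% of 16380 genes (relative tolerance 6e-08). The column names placed all 16 libraries in their groups. Values were tested as log2(RPKM + 1) with limma 3.58.1 in R 4.3.3 (trend, robust), each comparison on its own groups and the difference between genotypes over all 4, with Benjamini-Hochberg adjustment over all genes. Comparisons that share a group are not independent. Single values were tested by exact permutation (70 arrangements) and correlations by 100000 permutations, in Python 3.11.15 with scipy 1.17.1. The members and the gene lists were chosen with earlier results of these data known. The genes named were the members, up to 4 genes of each list with the smallest unadjusted p, and those most alike in pattern. Alternatives were other pseudocounts, filters, scalings, limma-voom on recovered reads, library weights, an erythroid covariate and libraries left out, of which leaving out WT-Sal replicate 3 with both shallow libraries, and the ratios to S100a8, were chosen after seeing the data. Fits were tested on simulated data. Gene symbols stored as dates (24) were replaced by gene ID, and 99.9% of IDs were in the annotation. Promoter sequences are from RefSeq (GRCm38.p6). Recovered reads per library ran, for KO-Bleo, over 1234594 to 21810640, for WT-Bleo over 604134 to 32153698, for KO-Sal over 15538872 to 17740863, and for WT-Sal over 7790575 to 23481714.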

Additional observations from a re-analysis of the deposited data

Results flagged for a closer look

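In 6 of 36 groups of 4 libraries, 1 library lay so far from the others that its gap to the nearest, as a share of the range, exceeded Dixon's critical value. For normally distributed values such a gap arises in about 1 in 20 groups. The 36 groups are not independent, since the genes share libraries and several follow each other, so the count of 6 cannot be set against that rate. Of the 6, 4 came from WT-Sal replicate 3, with 340.1 RPKM of S100a8, 282.7 RPKM of S100a9, 3.77 RPKM of Il1r2 and 9.43 RPKM of Ngp. The gaps made up 0.940, 0.912, 0.882 and 0.907 of the ranges of WT-Sal for these genes. Retnlg stood apart in KO-Sal replicate 12, at 25.9 RPKM, and Ngp in KO-Bleo replicate 15, at 8.37 RPKM from 12 reads of a shallow library.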

How the results depend on the processing

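No paired analysis was possible because the replicate numbers run through all 16 libraries and no number is shared between groups. The count of members called moved to 1 in WT-Bleo against WT-Sal without WT-Sal replicate 3 and both shallow libraries. In KO-Bleo against KO-Sal it moved to 0 when at least 10 reads were asked for in every library (Il1r2 was then not tested), with the spread shared over all 4 groups, with erythroid genes as a covariate and with the study's thresholds, and in KO-Sal against WT-Sal the study's thresholds gave 1. Genes called over the whole table ranged from 48 (erythroid covariate) to 7087 against 5066 in WT-Bleo against WT-Sal, from 873 (erythroid covariate) to 5320 against 3864 in KO-Bleo against KO-Sal, from 0 to 581 (limma-voom) against 35 in KO-Bleo against WT-Bleo, from 3 to 722 (without KO-Sal replicate 12) against 8 in KO-Sal against WT-Sal, and from 0 to 136 against 36 for the difference between genotypes. The summed erythroid level separated bleomycin from saline groups, so that covariate takes up the treatment itself. Of 895 recomputed member values, 99 changed sign, 0 of them with an adjusted p under 0.05, and beyond the above the cause was not tested. The values that follow are log2 fold changes after a change of sign. With library quality weights these were Il1b 0.20 in WT-Bleo against WT-Sal, and S100a9 -0.11, Trem1 0.22 and Camp -0.11 in KO-Bleo against KO-Sal, and S100a8 -0.03, S100a9 -0.13, Csf3r -0.12, Il1b -0.32 and Camp -0.05 in KO-Bleo against WT-Bleo, and Trem1 0.06 in the difference between genotypes. Without both shallow libraries these were Il1b 0.14 in WT-Bleo against WT-Sal, and S100a9 -0.19, Csf3r -0.03, Trem1 0.22 and Camp -0.14 in KO-Bleo against KO-Sal, and S100a8 -0.05, S100a9 -0.15, Csf3r -0.14, Il1b -0.31, Retnlg -0.01 and Camp -0.15 in KO-Bleo against WT-Bleo, and Trem1 0.03 in the difference between genotypes. With erythroid genes as a covariate these were S100a8 0.37, S100a9 0.38, Csf3r 0.61, Trem1 -0.01, Il1b 0.56, Retnlg 0.66, Ngp 0.87 and Camp 1.13 in WT-Bleo against WT-Sal, and S100a9 -0.25, Trem1 0.39, Ngp -0.57 and Camp -0.67 in KO-Bleo against KO-Sal, and Il1r2 0.12 in KO-Bleo against WT-Bleo. Without WT-Sal replicate 3 and both shallow libraries these were S100a8 0.05, Csf3r 0.01, Il1b 0.54 and Camp 0.18 in WT-Bleo against WT-Sal, and Csf3r -0.04, Il1r2 -0.12 and Camp -0.32 in the difference between genotypes. With a pseudocount of 5 these were Trem1 0.01 in KO-Bleo against KO-Sal, and Il1b 0.01 in the difference between genotypes. By limma-voom on whole reads these were S100a9 -0.15, Trem1 0.28 and Camp -0.17 in KO-Bleo against KO-Sal, and S100a8 -0.06, S100a9 -0.17, Csf3r -0.15, Il1b -0.35, Retnlg -0.06 and Camp -0.35 in KO-Bleo against WT-Bleo, and Il1b -0.14 in KO-Sal against WT-Sal, and Trem1 0.20 in the difference between genotypes. With a pseudocount of 0.1 these were Il1r2 0.48 in KO-Bleo against WT-Bleo. With median-of-ratios scaling these were Il1b 0.01 in the difference between genotypes. When a single replicate was left out, the values that could change sign ranged as Camp -0.14 to 0.23, Csf3r -0.03 to 0.31, Il1b -0.33 to 0.23, S100a9 -0.19 to 0.24 and Trem1 -0.13 to 0.22 in KO-Bleo against KO-Sal, and Camp -0.02 to 0.36, Il1b -0.15 to 0.36, Il1r2 -0.46 to 0.25 and Trem1 -0.31 to 0.04 in KO-Bleo against WT-Bleo, and Camp -0.41 to 0.17, Il1b -0.16 to 0.50 and Trem1 -0.22 to 0.05 in KO-Sal against WT-Sal, and Camp -0.54 to 0.04, Il1b -0.28 to 0.38 and Trem1 -0.04 to 0.23 in WT-Bleo against WT-Sal, and Il1b -0.43 to 0.25 and Trem1 -0.25 to 0.14 in the difference between genotypes. Ngp, Camp and Il1r2 were limited by depth in both shallow libraries.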

Other observations

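The shallow KO-Bleo replicate 15 had the second highest level of 7 of the 9 genes. It was the highest library for 15.6% of all listed genes and for 0 of the 9 members. The share of all genes second highest there was not counted. Its levels of Camp, Ngp and Retnlg rest on 1, 12 and 30 reads. In the same library the summed level of 8 classical monocyte markers was 1113 RPKM, against 558 to 898 RPKM in the other 15 libraries, that of 10 alveolar macrophage markers was 906 RPKM, against 468 to 783 RPKM, and that of 10 dendritic cell markers was 103.5 RPKM, against 52.6 to 90.2 RPKM. Chil3 is in both the monocyte and the alveolar macrophage list, so these sums are not independent. The monocyte markers Ccr2, F13a1, Plac8 and Vcan were each higher in another library. Its 5 erythroid genes summed to 7.28 RPKM, against 9.81 to 67.8 RPKM in the other 15 libraries. The relation of these levels to the members' levels in that library was not tested.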
